A study of Caenorhabditis elegans with 2 samples.

Results

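Distal intergenic peaks of REF-2 in the late *C. elegans* embryo are described here: 345 of the 2129 peaks of the optimal list, the list that the authors thresholded on reproducibility between replicates (IDR). A peak was taken when its summit, the position of highest signal, met 3 conditions on the WBcel235 gene models. The summit lay inside no gene of any biotype. It lay in no promoter window, the stretch around each protein-coding 5' end that reaches 1000 bp up and 200 bp down. It lay more than 200 bp from every tRNA, snoRNA, snRNA, ncRNA and lincRNA gene. No signal entered the choice beyond the threshold of the optimal list itself.

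The data are chromatin immunoprecipitation with sequencing (ChIP-seq) from whole hermaphrodites at the late embryonic stage, collected 3 hours after synchronization by egg bleaching. The labels give 1 group with 2 replicates, numbered as biological replicates, and do not say whether they were separate cultures. The strain was OP520, genotype unc-119(tm4063) III; wgIs520, a line that stably expresses REF-2 with a GFP-FLAG tag at its C-terminus. All samples carried the unc-119 allele and the transgene, and no untagged strain or input control was analysed here. The immunoprecipitation used an antibody against GFP, after sonication of the chromatin. REF-2 was measured in the whole animal, so a peak cannot be assigned to a cell type, and few cells with strong binding cannot be told apart from many cells with weak binding.

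REF-2 belongs to the Zic family of zinc finger proteins that regulate transcription. In *C. elegans* it is known for its role in epidermal precursor cells, where it acts beside Hox genes in the control of cell fusion, and in the specification of neurons such as the AIY interneurons. Zic proteins of vertebrates bind GC-rich words with a core close to CAGCAGG or CAGCGGG. Intergenic sequence away from gene starts can hold enhancers, insulators, the 3' ends of transcripts, unannotated genes and sites where chromatin complexes load. Genes lie close together in *C. elegans*, so sequence far from any gene start is limited. Only 20.7% of the nuclear genome, 20.7 Mb, met the 3 conditions, and this is called eligible sequence below.

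The peaks that meet the rule made up 16.2% of the optimal list (95% exact Clopper-Pearson interval 14.7 to 17.8), a density of 16.6 peaks per eligible Mb. The other optimal peaks were 972 in promoter windows, 720 inside a gene but outside promoter windows, and 92 intergenic peaks within 200 bp of a noncoding gene. Intervals on shares cover counting error only, and peaks are not replicates of a condition. Depth per library is unknown, since the deposited lists give signal per peak and no read counts.

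The 6 strongest distal intergenic peaks are shown first, because they show what kind of sequence carried the highest signal. Each is the 201 bp centred on the summit, read from the RefSeq genome on the + strand of ce11 (WBcel235), written 5' to 3' in lower case. Capitals mark any of 4 words on either strand: a Zic core (CAGCAGG or CAGCGGG), GAGACGCAG, GAGAGAGA and CTGCGCGA. GAGACGCAG and CTGCGCGA were chosen after the data had been seen.
W04G3.11/W02H3.3 (chrX:11094096-11094296, signal 479): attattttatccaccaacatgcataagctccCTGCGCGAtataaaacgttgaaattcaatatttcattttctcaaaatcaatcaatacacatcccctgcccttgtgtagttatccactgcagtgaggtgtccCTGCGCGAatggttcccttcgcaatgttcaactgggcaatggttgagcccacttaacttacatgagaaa
F20B6.9/hpk-1 (chrX:4209195-4209395, signal 431): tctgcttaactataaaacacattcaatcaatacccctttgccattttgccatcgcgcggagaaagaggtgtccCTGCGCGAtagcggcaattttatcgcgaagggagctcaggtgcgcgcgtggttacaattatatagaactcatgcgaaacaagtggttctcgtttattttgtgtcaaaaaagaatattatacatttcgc
sup-26/R10E4.3 (chrIII:4282220-4282420, signal 405): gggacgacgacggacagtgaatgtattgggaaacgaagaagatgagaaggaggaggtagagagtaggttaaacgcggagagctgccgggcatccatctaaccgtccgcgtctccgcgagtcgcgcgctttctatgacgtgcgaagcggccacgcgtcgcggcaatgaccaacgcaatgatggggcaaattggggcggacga
C33D9.6/C33D9.13 (chrIV:8782290-8782490, signal 391): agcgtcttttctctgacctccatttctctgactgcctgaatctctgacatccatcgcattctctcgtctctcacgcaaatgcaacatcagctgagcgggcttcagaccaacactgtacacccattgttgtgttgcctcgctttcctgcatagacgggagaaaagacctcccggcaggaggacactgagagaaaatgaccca
adm-2/K02D3.1 (chrX:13700738-13700938, signal 381): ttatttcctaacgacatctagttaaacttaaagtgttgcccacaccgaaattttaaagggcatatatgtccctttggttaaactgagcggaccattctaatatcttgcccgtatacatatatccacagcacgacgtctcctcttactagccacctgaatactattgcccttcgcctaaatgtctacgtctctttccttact
ref-2/deg-1 (chrX:7750206-7750406, signal 371): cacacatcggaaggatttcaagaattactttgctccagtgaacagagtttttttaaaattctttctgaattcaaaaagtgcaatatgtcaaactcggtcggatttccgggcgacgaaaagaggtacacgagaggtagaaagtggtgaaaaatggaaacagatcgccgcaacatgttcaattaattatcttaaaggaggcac
None of these 6 windows held a Zic core, GAGACGCAG or GAGAGAGA. The first and second share the 17-base run gaggtgtccctgcgcga, which occurs 2 times in the nuclear genome, in these windows alone. Base composition varied among the 6: the sup-26 peak had a GC content of 58.7% and the ref-2 peak 39.3%.

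The strongest peak lay on chromosome X at 11094079 to 11094308, between the converging genes W04G3.11 and W02H3.3. Its signal was 479 in the pooled list, 227 in replicate 1 and 256 in replicate 2. It lay 3327 bp past the 3' end of W04G3.11 and 2756 bp past that of W02H3.3, so neither flanking gene pointed its start at the site. The second, on X at 4209075 to 4209514, had a signal of 431, with 209 in replicate 1 and 235 in replicate 2. It lay 1810 bp upstream of F20B6.9 and 1276 bp past the 3' end of hpk-1, which encodes a homeodomain-interacting protein kinase.

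The third lay on chromosome III between sup-26 and R10E4.3, with a signal of 405, and was 2096 bp upstream of sup-26, an RNA-binding protein gene of the sex determination pathway. The fourth lay on IV between C33D9.6 and C33D9.13, 4245 bp upstream of the former and 880 bp past the 3' end of the latter, with a signal of 391. The fifth lay on X, 5037 bp past the 3' end of adm-2, an ADAM family metalloprotease gene, and 6069 bp upstream of K02D3.1, with a signal of 381. These 5 were among the 100 strongest peaks of each replicate.

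The sixth peak lay 293 bp past the 3' end of ref-2 itself, on X at 7750086 to 7750525, and 2764 bp upstream of deg-1, a degenerin channel gene. Its signal was 371 in the pooled list, 187 in replicate 1 and 177 in replicate 2. The strain carries extra ref-2 sequence on its transgene, so transgene copies and the native locus cannot be told apart here.

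Of the 25 strongest distal peaks, with pooled signals of 277 to 479, 15 lay between tandem genes, 7 between divergent genes and 3 between convergent genes. All 25 were within 200 bp of one of the 2129 strongest summits of both replicates. Chromosome X held 10 of them, III held 5, IV held 4, II held 3, I held 2 and V held 1. In 21 of the 25 the nearest 5' end of a protein-coding gene was within 5000 bp.

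Among the 25, the sites beside xol-1, gtr-1, sma-9 and din-1 are given here, chosen after their values were seen. The ninth lay 4817 bp past the 3' end of C34D10.1 and 4882 bp upstream of xol-1, the switch gene that sets sex and X dosage compensation, with a signal of 335. The seventh lay 291 bp past the 3' end of F25E2.2 and 2431 bp past that of gtr-1, with a signal of 352. The sixteenth lay 2880 bp upstream of sma-9, a zinc finger cofactor of the BMP-like body size pathway, and 8250 bp past the 3' end of R07A4.3, with a signal of 299. The peak of rank 25 lay 2429 bp upstream of din-1, a corepressor that partners the nuclear receptor DAF-12, and 10709 bp upstream of ghi-1, with a signal of 277.

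Several of the 25 lay in wide gaps between divergent genes. The eighth and seventeenth shared the gap between F54F12.1 and Y39E4B.6, with signals of 338 and 297. The eleventh lay 5069 bp upstream of Y41D4B.24 and 12664 bp upstream of bus-2, with a signal of 328. The twelfth lay 8590 bp upstream of F52G3.8 and 2322 bp upstream of F52G3.1, with a signal of 319. The thirteenth lay 4837 bp upstream of sam-10, which acts in presynaptic assembly, and 2919 bp upstream of mrpl-20, a mitochondrial ribosomal protein gene, with a signal of 315. The fourteenth lay 6220 bp upstream of F58D5.7 and 1078 bp upstream of F58D5.5, with a signal of 311. The farther start lay over 5000 bp away in each of these but the thirteenth.

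Others sat in tandem arrays. The tenth lay 495 bp past the 3' end of K08F11.1 and 11750 bp upstream of fbxb-78, an F-box gene, with a signal of 334. The fifteenth lay 16257 bp past the 3' end of sri-5, a chemoreceptor gene, and 4459 bp upstream of ztf-6, a zinc finger gene, with a signal of 301. The nineteenth lay 2175 bp past the 3' end of C23H3.2 and 3175 bp upstream of egl-26, with a signal of 292. The twentieth lay 1200 bp past the 3' end of Y48G9A.9 and 1214 bp upstream of ppk-2, a phosphatidylinositol phosphate kinase gene, with a signal of 291. These sites ranged from just outside a promoter window to several kilobases from any start.

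The remaining 5 of the 25 had signals of 283 to 292. The peak of rank 18 lay in a short convergent gap, 223 bp past the 3' end of aagr-1, an acid alpha-glucosidase relative, and 128 bp past that of D2096.7. Rank 21 lay 3726 bp past the 3' end of Y15E3A.5 and 7366 bp upstream of nfki-1, an IkB homologue gene. Rank 22 lay 1740 bp past the 3' end of H11E01.2 and 1013 bp upstream of fbxb-58, just beyond the promoter window. Rank 23 lay 1157 bp upstream of mtm-3, a myotubularin gene, and 277 bp past the 3' end of xbx-5. Rank 24 lay 570 bp past the 3' end of F58D12.1 and 2607 bp upstream of F58D12.3.

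The word CTGCGCGA, noticed in the strongest sequences, was then counted in every window. It was present within 100 bp of the summit in 8 of 345 distal peaks, 2.32% (1.01 to 4.52), and in 0.0895% of all 94929 eligible windows of the same length. Of these 8 peaks, 7 were among the 75 on X, 9.33% (3.84 to 18.3), and 1 was among the 270 on autosomes, 0.370% (0.00938 to 2.05). They included 4 of the 25 strongest, those beside W04G3.11, hpk-1, gtr-1 and xol-1. The other distal X peaks with it lay beside F22H10.2, hlh-29 and col-185. Over the nuclear genome the word is itself denser on X, at 7.84 per Mb against 4.72 on autosomes. Promoter peaks held it in 3 of 210 on X and 1 of 762 on autosomes. Gene peaks held it in 2 of 171 on X, 1.17%, and 4 of 549 on autosomes, 0.729%. Median signal was 335 for the 7 distal X peaks with the word, against 137 for the 68 distal X peaks without it and 135 for the 270 autosomal distal peaks. In replicate 1 these medians were 170, 67.7 and 61.6, and in replicate 2 they were 173, 82.1 and 74.8. Because the word was picked from the strongest peaks, these signals are a description and no test was made.

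A longer form, CCCTGCGCGA (TCGCGCAGGG on the other strand), is the last 10 bases of the run shared by the first and second peaks. This run is part of the word known as MEX, which marks sites where the dosage compensation complex, a condensin-like complex that lowers X expression in hermaphrodites, is recruited to X. It occurs 19 times on X, or 1.07 per Mb, and 6 times on the autosomes, or 0.0727 per Mb. Of the 19 matches on X, 12 had an optimal summit within 200 bp, 63.2% (38.4 to 83.7), and of the 6 on autosomes 0 did, an interval of up to 45.9%. The matches at the first and second peaks, from which the run was drawn, are among the 12, so the share is a description and no test was made. The 12 matches lay at 10 distinct peaks, and the interval counts each match as separate. In the relaxed pooled list of 30000 peaks the 4 autosomal matches with a listed summit had signals of 45.8 to 57.6. Of the 14 X matches with a listed summit there, 2 had 49.5 and 49.6, within that range, and the 12 with an optimal summit had 119 to 479. No optimal peak had a signal below 105.5, so the threshold itself sets matches with an optimal summit above those without. Distal intergenic peaks held 8 of the 12 X matches near an optimal summit, in 6 peaks, and the other matches lay at peaks in promoter windows and genes. All 12 had a summit within 200 bp in the list of each replicate, with signals of 67.7 to 227 in replicate 1 and 51.1 to 256 in replicate 2. The complex was not measured here, and its part in these peaks was not tested.

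The second set of sequences shows the 4 strongest distal peaks with a Zic core, since this is the word known for the protein family. Windows, strand and capitals are as above.
Y48G9A.9/ppk-2 (chrIII:2100981-2101181, signal 291): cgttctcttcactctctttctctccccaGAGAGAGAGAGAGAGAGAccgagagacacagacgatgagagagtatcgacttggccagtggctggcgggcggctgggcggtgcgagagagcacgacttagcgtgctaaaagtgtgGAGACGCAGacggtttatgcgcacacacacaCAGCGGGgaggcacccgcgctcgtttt
jmjd-2/hmg-1.1 (chrII:14248178-14248378, signal 249): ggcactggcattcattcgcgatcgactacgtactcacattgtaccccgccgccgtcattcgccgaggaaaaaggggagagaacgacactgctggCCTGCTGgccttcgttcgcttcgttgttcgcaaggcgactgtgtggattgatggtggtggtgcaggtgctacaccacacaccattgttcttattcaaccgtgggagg
M163.8/his-24 (chrX:14486608-14486808, signal 239): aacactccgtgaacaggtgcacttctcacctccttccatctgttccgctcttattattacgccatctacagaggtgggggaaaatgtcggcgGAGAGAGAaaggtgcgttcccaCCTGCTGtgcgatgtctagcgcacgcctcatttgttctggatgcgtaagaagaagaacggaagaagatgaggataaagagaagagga
T27A8.7/T27A8.2 (chrX:16056441-16056641, signal 226): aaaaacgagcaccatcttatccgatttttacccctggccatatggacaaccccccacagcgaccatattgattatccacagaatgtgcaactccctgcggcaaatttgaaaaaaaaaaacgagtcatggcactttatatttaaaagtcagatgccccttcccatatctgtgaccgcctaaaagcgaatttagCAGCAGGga
The ppk-2 window held all of CAGCGGG, GAGACGCAG and GAGAGAGA, with the Zic core starting 74 bp to the right of the summit. In the hmg-1.1 window the core started 6 bp left of the summit, in the his-24 window 14 bp right, and in the T27A8.7 window 92 bp right. The core was thus close to the summit in 2 of these 4.

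A Zic core lay within 100 bp of the summit in 21 of 345 distal peaks, 6.09% (3.81 to 9.15), against 1.31% of eligible windows. In windows 1000 bp to either side of the same summits the share was 1.30%. It was 6.48% at the summits of the 972 promoter peaks, 6.81% at gene summits and 8.70% at summits near noncoding genes. The distal share was thus the lowest of these classes. CAGCAGG and CAGCGGG were each present in 11 peaks. At 8%, 10%, 7% and 3.45%, the share in distal peaks of ranks 1 to 50, 51 to 100, 101 to 200 and 201 to 345 had overlapping intervals. Median signal was 150 for the 21 peaks with a core and 136 for the 324 without. The other 324 distal peaks held no Zic core in this window.

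Of the 21 peaks with a Zic core, 4 are given here, chosen after their values were seen. The 1 peak with 2 cores lay between pha-4, the forkhead gene of pharynx identity, and elp-1, with a signal of 154. The core peak between egl-4 and egl-18 lay 4518 bp upstream of egl-18, a GATA factor gene of seam cells, with a signal of 136. Another lay beside cfz-2, a Frizzled-type Wnt receptor gene, 5865 bp upstream of it, with a signal of 189. A further one lay 4150 bp from the nearest 5' end in the gap between glr-4 and cki-1, the latter a cell cycle inhibitor gene, with a signal of 129.1.

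More common at the summits were purine-rich words. GAGAGAGA was present in 75 of 345 windows, 21.7% (17.5 to 26.5), against 3.19% of flanks, 1.59% of eligible windows, 9.26% of promoter summits and 15.4% of gene summits. GAGACGCAG was present in 69, 20% (15.9 to 24.6), against 1.88% of flanks, 0.945% of eligible windows, 10.5% of promoter summits and 11.25% of gene summits. This word was chosen after these same data had been seen, so its excess at the summits may be built in. Its share is a description and no test was made. The words can overlap, as in a GA repeat that runs into GAGACGCAG, and 27 of the 69 windows with GAGACGCAG also held GAGAGAGA. ACACACAC, also added after the data were seen, was present in 12.2% of distal summits, 9.03% of gene summits and 1.35% of eligible windows. Of the 345 windows, 204 held none of the Zic core, GAGACGCAG, GAGAGAGA and CTGCGCGA.

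A pair of strong distal peaks with GAGACGCAG are shown as examples. Both sequences below were chosen after the word had been seen. A further strong peak with it, between F52G3.8 and F52G3.1 (signal 319), is not printed. There the word starts 63 bp right of the summit.
gtr-1/F25E2.2 (chrX:806600-806800, signal 352): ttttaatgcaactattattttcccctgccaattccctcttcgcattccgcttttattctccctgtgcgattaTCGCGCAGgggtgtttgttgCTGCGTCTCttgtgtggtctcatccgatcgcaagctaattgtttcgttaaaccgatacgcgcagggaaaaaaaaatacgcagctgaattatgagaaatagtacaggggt
sam-10/mrpl-20 (chrII:13335262-13335462, signal 315): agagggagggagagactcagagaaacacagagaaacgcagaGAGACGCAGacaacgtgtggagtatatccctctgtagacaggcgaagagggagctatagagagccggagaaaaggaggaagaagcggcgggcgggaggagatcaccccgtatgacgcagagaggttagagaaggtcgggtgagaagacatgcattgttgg
In the gtr-1 window the word is on the other strand and starts 8 bp left of the summit, and the window also holds CTGCGCGA on the other strand. In the sam-10 window it lies in a long purine-rich stretch, 59 bp left of the summit. Peaks with GAGACGCAG had a median signal of 151 and those without it 132, with replicate medians of 70.5 and 61.5 in replicate 1 and 83.7 and 73.6 in replicate 2. Of the 69 with it, 81.2% were near one of the strongest summits of both replicates, and of the 276 without it, 64.1%.

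**Figure D1:**
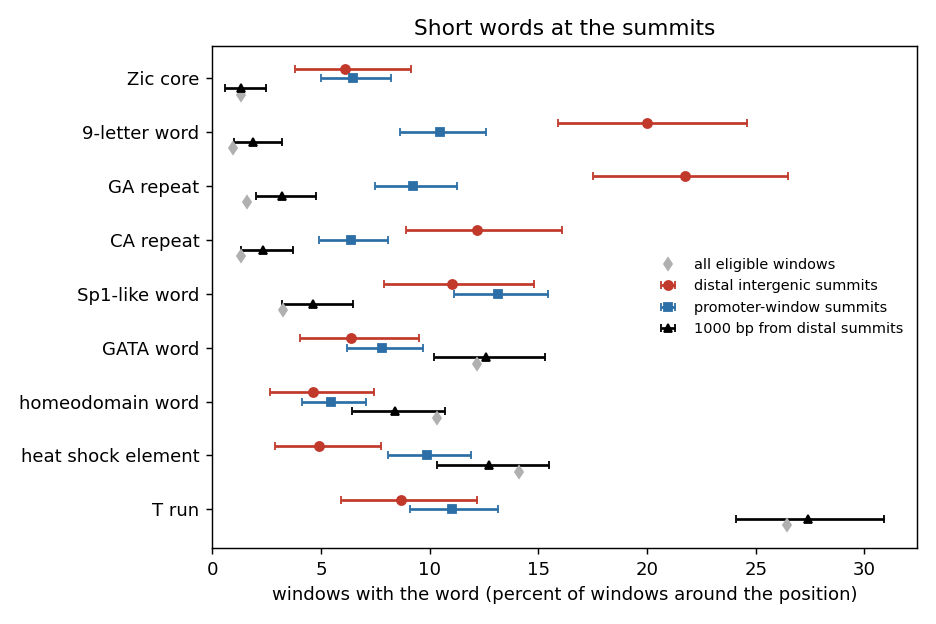
Share of 201 bp windows that hold each short word, in percent, at distal intergenic summits (red, n = 345), at promoter-window summits (blue, n = 972), in windows 1000 bp to either side of the distal summits (black, n = 690) and in all eligible windows (grey); bars are exact 95% intervals. The 9-letter word is GAGACGCAG, at 20% of distal summits, and the GA repeat is GAGAGAGA, at 21.7%. The 9-letter word and the CA repeat were added after the data had been seen. T runs were at 8.70% of distal summits and 27.4% of flanks.

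AT-rich words were less frequent at the summits than beside them. A run of 8 T (or 8 A) was present in 8.70% of distal summit windows, 27.4% of flanks and 26.5% of eligible windows. The GATA factor word AGATAA was present in 6.38%, 12.6% and 12.2%, and the homeodomain word TAATTA in 4.64%, 8.41% and 10.3%. The heat shock word GAANNTTC was present in 4.93%, 12.8% and 14.1%. GGGCGG, an Sp1-like word, was present in 11.01%, 4.64% and 3.24%. The tRNA promoter word GTTCGANNC was present in 0.580% of distal summits, against 11.9% of gene peaks and 23.9% of the peaks near noncoding genes, classes that the rule keeps apart from these.

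Base composition also differed between the summits and the sequence around them. Median GC content was 47.8% in the 201 bp at distal summits, 34.8% in their flanks and 33.3% in eligible windows. Promoter and gene summits had medians of 45.8% and 48.8%. The share of bases soft-masked as repeats averaged 16.8% at distal summits, 38.9% in flanks and 42.9% in eligible windows. The part of base composition, and of the ease with which GC-rich DNA is recovered and sequenced, in the word shares was not tested.

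**Figure D2:**
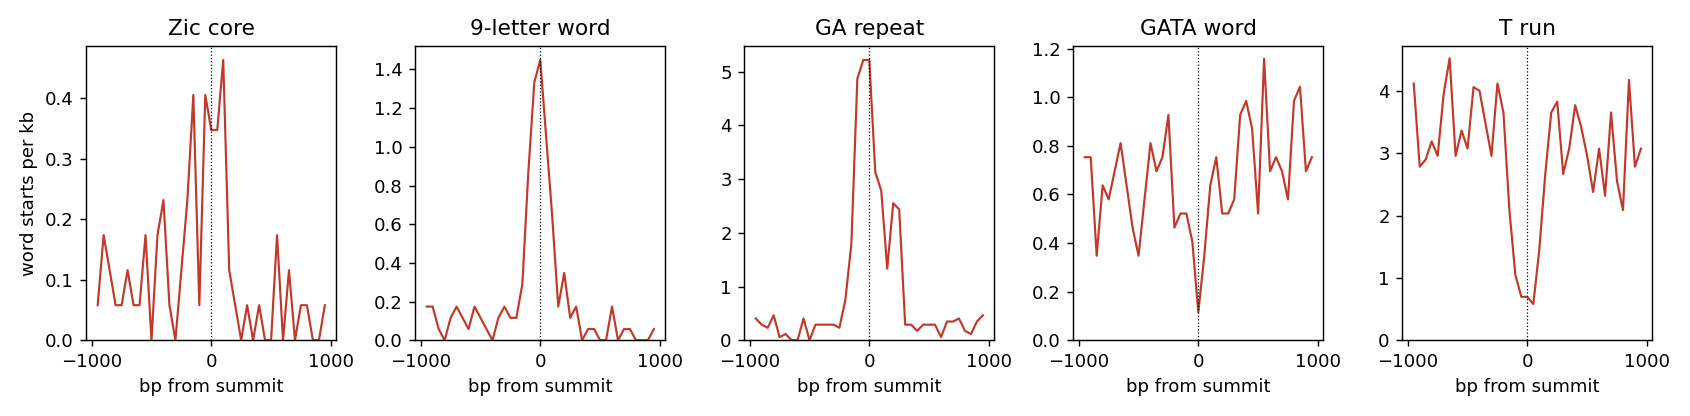
Word starts per kb in 50 bp bins across 950 bp to either side of the 345 distal summits, for the Zic core, the 9-letter word GAGACGCAG, the GA repeat GAGAGAGA, the GATA word and the T run; vertical axes differ between panels. The 9-letter word and the GA repeat rise towards the summit, and the GATA word and T run dip there. The Zic core is more frequent around the summit but without a clear peak at it. Its highest bin, of only 8 matches, is centred 100 bp to the right.

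Few distal summits were in repeated sequence that occurs at many places. A match of at least 100 bp and 80% identity elsewhere in the genome was found for 19 of 345, and 9 had more than 10 such copies. The strongest of these 9 lay between wrb-1 and Y50D4A.6, with a signal of 271 and 59 copies. A sequence match to a noncoding gene was found for 21 of 345, 6.09%, against 205 of 972 promoter peaks and 317 of 720 gene peaks; the rule builds a low count in, since it keeps distal summits away from most noncoding genes. At sites with many copies, reads cannot be placed with certainty.

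Among the optimal peaks, distal intergenic ones were on the weak side. Their median signal was 136 (range 106 to 479), against 154 for promoter peaks, 138 for gene peaks and 147 for peaks near noncoding genes. The log2 ratio of the distal to the promoter median was -0.18 in the pooled list, -0.25 in replicate 1 and -0.15 in replicate 2, the same direction in both. Against gene peaks it was -0.03, -0.03 and 0.01, so no direction was shared. Of the strongest optimal peaks, 0 of the first 25, 7 of the first 100 and 24 of the first 200 were distal intergenic. The −log10 q of the distal peaks ran from 0.954 to 2.87 with a median of 1.88.

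The distal share stayed between 12.2% and 18.2% along the pooled ranking. Of the 500 strongest peaks of the pooled list 12.2% (9.46 to 15.4) met the rule, of ranks 501 to 1000 15.8%, and of ranks 1001 to 2129 18.2% (15.9 to 20.5). Below the optimal threshold it was 16.6% for ranks 2130 to 5000 and 14.1% (13.5 to 14.8) for ranks 20001 to 30000. Replicate 1 went from 10.8% to 18.9% and 14.4% over the ranges 1 to 500, 1001 to 2129 and 20001 to 30000, and replicate 2 from 13.2% to 17.5% and 14.6%. Every one of these shares was below the 20.7% of the genome that is eligible. The share in promoter windows fell from 55.8% to 21.5% between the first and last range of the pooled list.

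**Figure D3:**
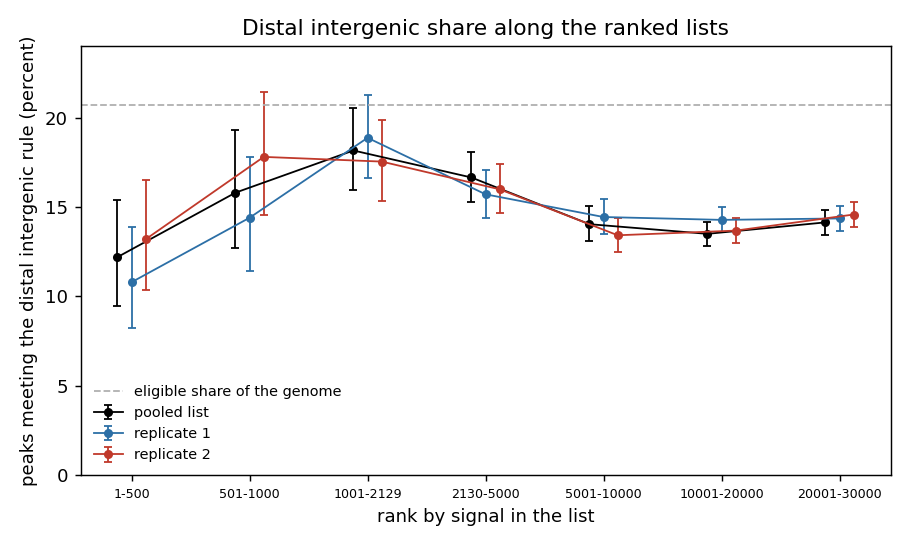
Share of peaks that meet the distal intergenic rule, in percent, by rank of signal in the pooled list (black), replicate 1 (blue) and replicate 2 (red), with exact 95% intervals; the dashed line is the eligible share of the genome, 20.7%. In each list the highest point is in the middle, at ranks 501 to 2129, and the pooled points stay between 12.2% and 18.2%.

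Both replicates marked most of the distal peaks. Of the 345, 233 were within 200 bp of one of the 2129 strongest summits of both replicates, 67.5% (62.3 to 72.5), where the share over all optimal peaks was 70.2%. It was 75.2% for promoter peaks and 64.6% for gene peaks. A further 43 were near one of the strongest summits of replicate 1 alone, 57 of replicate 2 alone and 12 of neither. Since the optimal list was chosen on reproducibility from these replicates, agreement between them is partly built in.

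Signal could be set side by side at the 342 distal peaks with a summit in both lists. Replicate 2 over replicate 1 had a median log2 ratio of 0.24, against 0.18 over all optimal peaks and 0.13 over promoter peaks. Across the 342 peaks Spearman's rho was 0.599 and Pearson's r of log2 signal was 0.666; these points share both libraries, and the values were 0.647 and 0.733 over all optimal peaks. After centring on the median of all optimal peaks, 13 of 342 differed more than 2-fold, 3.80% (2.04 to 6.41), where 3.69% of all optimal peaks did. Replicate 2 was higher in 9 and replicate 1 in 4. The distal share past 2-fold was thus near that of the whole list.

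**Figure D4:**
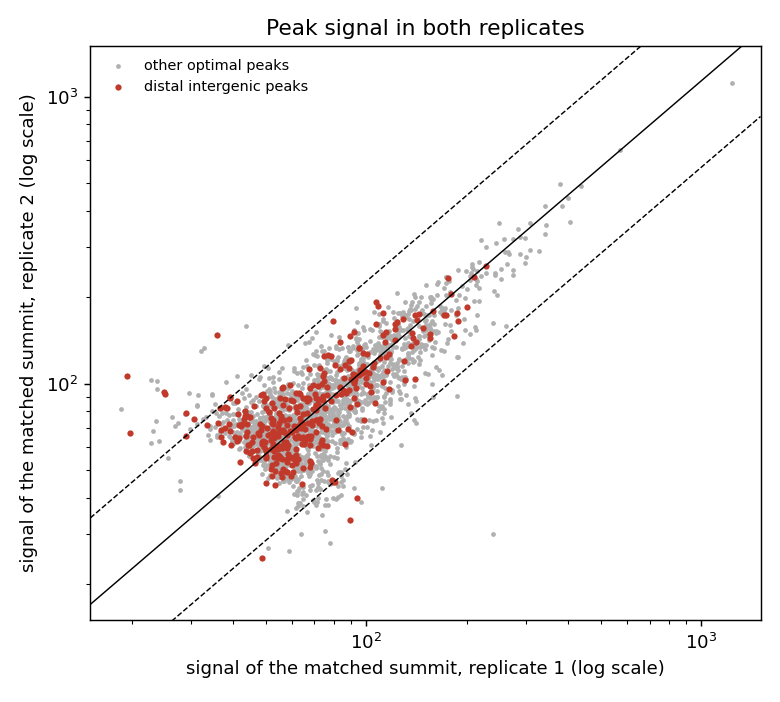
Signal of the matched summit in replicate 1 against replicate 2, both on log scales, for distal intergenic peaks (red, n = 342) and other optimal peaks (grey); the solid line is the median ratio of all optimal peaks and the dashed lines are 2-fold to either side. Most distal peaks lie between the dashed lines, and 13 lie outside.

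The largest difference was at a second summit between sam-10 and mrpl-20, on II at 13335457 to 13335581, with a signal of 19.3 in replicate 1, where it ranked 27761, and 106 in replicate 2, where it ranked 534. Its centred log2 difference was 2.27. A stronger distal summit lies 200 bp away. The second largest was between jmjd-2, a histone demethylase gene, and hmg-1.1, with 35.9 in replicate 1 and 148 in replicate 2, a difference of 1.86; a stronger distal summit in the same gap was matched to the same replicate 2 summit, and its replicate 1 signal was 112.2. The third, between nape-1 and siah-1, had 24.9 and 93.6, and the fourth, 1846 bp upstream of rhgf-2, had 25.1 and 92.4. In these 4 replicate 1 was the low one.

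In the other direction the largest difference was 1772 bp upstream of Y48G8AR.2, with 89.6 in replicate 1 and 33.6 in replicate 2, a centred log2 difference of -1.60. A peak 2695 bp upstream of klf-1, a Kruppel-like factor gene, had 94.0 and 39.9. The peaks in the gaps between F57G12.1 and cab-1 and between melo-2 and nab-1 had 48.8 and 24.7, and 80.7 and 45.5. The 3 peaks with no summit of replicate 2 within 200 bp lay between npr-24 and nhr-1, F54F12.1 and Y39E4B.6, and Y65B4BL.6 and Y65B4BL.1, with replicate 1 signals of 76.4, 64.8 and 65.4. Some matches were not unique: 6 distal peaks shared a matched summit with another optimal peak.

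Flanking genes of the distal peaks were mostly in tandem. The flanking genes are the nearest protein-coding gene ends to the left and right. They pointed the same way in 194 of 345 cases, 56.2% (50.8 to 61.5), away from each other (divergent) in 121, 35.1% (30.04 to 40.4), and towards each other (convergent) in 30, 8.70% (5.94 to 12.2). Eligible sequence was 53.4% tandem, 30.9% divergent and 15.6% convergent. Density was thus 17.5 peaks per eligible Mb in tandem gaps, 18.9 in divergent gaps and 9.25 in convergent gaps. The tandem and divergent intervals contain the eligible shares of those orientations, and the convergent interval lies below its eligible share. The intervals cover counting error only, and no test was made. Median signal was 134, 139 and 143 for tandem, divergent and convergent peaks.

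Distances depended on orientation, which sets whether starts or 3' ends face the summit. The median distance to the nearest 5' end was 2417 bp (quartiles 1444 and 4150), and that of the other 1784 optimal peaks was 593 bp, a difference that the rule itself builds in. Of the 345, 134 were 1000 to 2000 bp from a 5' end, 139 were 2000 to 5000 bp, 60 were 5000 to 10000 bp and 6 were beyond 10000 bp. The 6 under 1000 bp lay downstream of short genes, past both the gene and its promoter window. Tandem peaks were a median of 2758.5 bp from the facing start and 2237.5 bp from the facing 3' end, and 80 of 194 were nearer the start. The rule bars summits up to 1000 bp upstream of a start and sets no such limit at a 3' end. The smallest tandem distances were thus 1003 bp to the start and 65 bp to the 3' end, and the lean is partly built in. Divergent peaks were a median of 2255 bp from the nearer start and 5618 bp from the farther one. Convergent peaks were a median of 332 bp from the nearer 3' end and 2052 bp from the farther one.

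**Figure D5:**
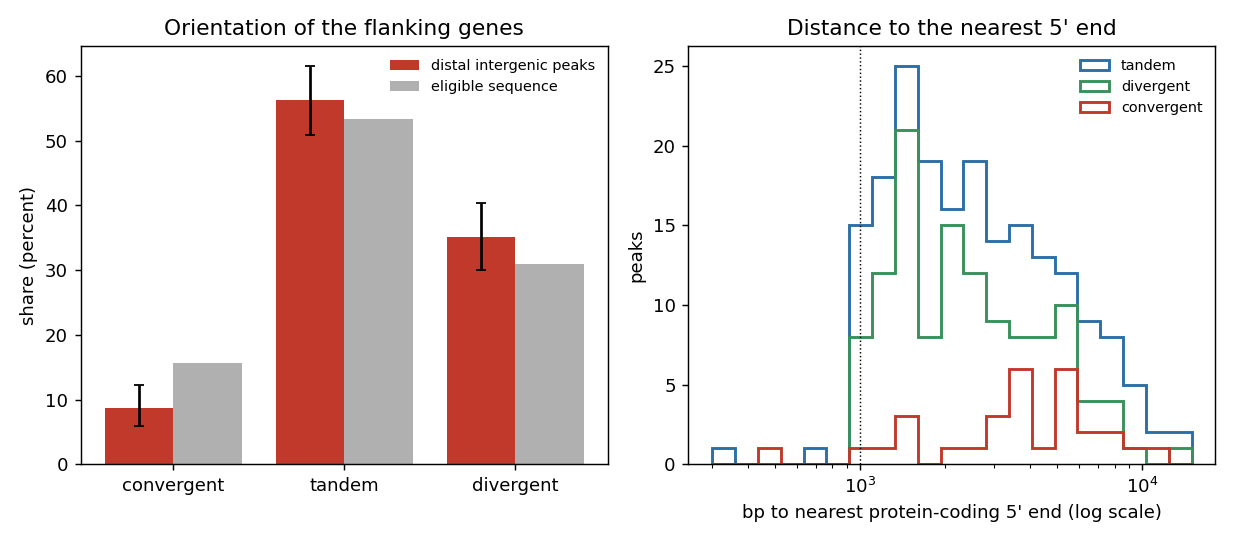
Left, share of distal intergenic peaks (red, exact 95% intervals, n = 345) and of eligible sequence (grey) between convergent, tandem and divergent protein-coding genes, in percent. Right, number of peaks by distance to the nearest protein-coding 5' end in bp (log scale) for each orientation; the dotted line is at 1000 bp, and the convergent peaks have the largest median, 3899.5 bp.

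The gaps that held distal peaks were long, with a median of 6878 bp (350 to 35563). The peak farthest from any 5' end lay between F57G12.1 and cab-1 on X, 14086 bp upstream of F57G12.1 and 13888 bp past the 3' end of cab-1, with signals of 37.4 and 62.5 in replicates 1 and 2. That gap of 27973 bp held 4 distal peaks. The gap between F54F12.1 and Y39E4B.6, 15313 bp long, held 5, with pooled signals of 118 to 338. The gap between rho-1, the RhoA gene, and zip-7 also held 4, with signals of 106 to 211. Of the 303 gaps with a distal peak, 270 held 1, 28 held 2 2 held 3, 2 held 4 and 1 held 5. Another optimal peak lay within 2000 bp of 89 of 345 distal peaks, 25.8% (21.3 to 30.8), against 19.7% (17.9 to 21.7) of the other optimal peaks.

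The 33 distal peaks with a 5' end up to 200 bp beyond the promoter window had a median of 139, and the 45 intergenic promoter peaks in the outer 200 bp of the window had 136. The 12 distal peaks up to a further 200 bp beyond the margin of a noncoding gene had a median of 182, and the 92 within 200 bp had 147. For 83 of 345 distal peaks the nearest gene of any biotype was an ncRNA gene, and for 218 a protein-coding gene.

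Chromosomes I and III held the most distal peaks per eligible Mb, 27.09 and 27.03 (66 and 65 peaks). Chromosome II held 56 (18.9 per Mb), X 75 (15.4), IV 52 (12.4) and V 31 (8). Chromosome V is rich in chemoreceptor and other large gene families. Chromosome I held 19.1% of the distal peaks and 17.6% of the other optimal peaks, III 18.8% and 16.3%, X 21.7% and 23.2%, and V 8.99% and 13.5%.

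The genes beside distal peaks were 597 of 19973 protein-coding genes, where 2.99% of genes is the share for the whole set. Of the 597, 70 also had an optimal summit in their promoter window, 11.7% (9.26 to 14.6), where 6.29% of all genes did. Gaps differ in length, so the share of distal peaks beside a list of genes is set against the share of eligible sequence beside it. The lists are described by counts, with no test.

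Transcription factor genes of the zinc finger and GATA list flanked 14 distal peaks, 4.06% of the 345, with 1.47% of eligible sequence. They were 9 of 61 genes, among them ref-2, ztf-6, sptf-3 and klf-1, and 3 of the 14 peaks lay in the sri-5 and ztf-6 gap. The sptf-3 peak, 6298 bp upstream of this Sp1-family gene, had signals of 91.7 and 101 in replicates 1 and 2. The bHLH list had 4 of 41 genes and 5 peaks, 1.45% against 0.984% of eligible sequence: beside mdl-1 (signal 241), hlh-2 (219), hif-1 (194) and hlh-29 (138). The hlh-2 summit, 1100 bp upstream of this E-protein gene, was just beyond the promoter window. Homeobox genes flanked 8 peaks, 2.32% against 2.37% of eligible sequence, the strongest beside ceh-24 (201) and ceh-43 (196). T-box genes, with 0.415% of eligible sequence, flanked 0 peaks (0 of 22 genes). Hox and cofactor genes flanked 2, 0.580% against 0.550%, both beside egl-5 (1 of 13 genes), with a peak 1952 bp upstream (145) and another 7095 bp past its 3' end (114).

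Signalling and adhesion genes followed. Notch and Wnt pathway genes flanked 5 peaks (4 of 40 genes), 1.45% against 0.739% of eligible sequence. The cfz-2 gap held 2 of them, and sup-17, an ADAM protease that cleaves Notch receptors, and cam-1, a Ror receptor kinase gene, 1 each, with signals of 162 and 144. Axon guidance and adhesion genes flanked 9 peaks (9 of 74 genes), 2.61% against 2.01%, among them madd-2 (223), zig-9 (209), mig-15 (173) and unc-71 (170). Epidermal and cell fusion genes flanked 9 (8 of 107 genes), 2.61% against 1.55%, with ref-2, egl-18 (136), vab-19 (134) and wrt-9 (133) the strongest. The muscle list had 5 of 54 genes, 1.45% against 0.680%: unc-97, the PINCH gene of muscle attachment, lay 1133 bp from a peak of signal 243, and dyb-1, deb-1 and pat-4 lay beside peaks of 138, 128 and 113.

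Several other lists had a smaller share of the peaks than of eligible sequence. Synaptic and neurotransmitter genes flanked 11 peaks (11 genes), 3.19% against 4.55% of eligible sequence, the strongest beside lgc-53 (253), unc-31 (153), snt-1 (135) and cat-1 (129.5). Neuropeptide and insulin-like genes flanked 4, 1.16% against 2.85%: nlp-46 (268), nlp-40 (156), nlp-6 (109) and flp-19 (107.8). The forkhead, Sox and POU list flanked 2, 0.580% against 0.636%, which are close, beside pha-4 (154) and pop-1 (107). The latter is a TCF gene of the Wnt pathway that the name pattern of the list took in. Nuclear hormone receptor genes flanked 7, 2.03% against 3.66%, with nhr-20 (201), nhr-1 (165), nhr-61 (161) and nhr-10 (121) the strongest.

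Several large gene families had a smaller share of the peaks than of eligible sequence. Chemoreceptor genes, 1311 in the list, flanked 6 peaks, 1.74% against 6.54% of eligible sequence, and 3 of the 6 lay in the sri-5 gap. F-box genes flanked 4, 1.16% against 2.02%, although these were strong, with a median of 259. C-type lectin genes flanked 2, 0.580% against 1.23%, beside clec-91 (175) and clec-135 (111.5). Cuticle collagen genes flanked 2, 0.580% against 1.28%, beside col-61 (219) and col-185 (119). Small secreted and immune genes flanked 1, 0.290% against 0.776%, beside irg-3 (114). Of 78 ribosomal protein genes 1, rpl-21, flanked a peak (128), 0.290% against 0.385%, and 1 peak is too few to tell these shares apart. Histone genes went the other way, with 0.580% against 0.159%, through 1 of 72 genes: his-24, an H1 linker histone gene, had peaks of 239 and 132 on either side of it.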

How the data were processed

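REF-2 ChIP-seq peaks were analysed in 1 group of 2 replicates from whole late embryos. The authors deposited a relaxed list of 30000 peaks per replicate and for the pooled replicates, and an optimal list thresholded by IDR, on the builds ce11 and ce10. The ce10 lists were not used here. No sequence of chromosome I is printed. The signal per peak and its −log10 q-value are the authors' deposited values, and how the signal was normalized is not given in the sources used here. Likewise not given in the sources used here are aligner, peak caller and versions. No counts or coverage were analysed, so depth is unknown and its effect on weak peaks cannot be measured. Control samples were not analysed here.

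Coordinates are 1-based on WBcel235 (ce11), with Ensembl 115 gene models. Classes, flanking genes and words were computed with Python 3.11.15, numpy 2.4.6 and pandas 2.3.3, copies elsewhere with BLAST+ 2.17.0 (E-value up to 1e-05), and exact intervals with scipy 1.17.1. The assignment of classes, orientations and tandem distances, the word search and the summit matching were tested on simulated data with known answers. Words were searched on both strands within 100 bp of the summit. Replicate summits were matched to the nearest within 200 bp. Signal ratios were centred on the median log2 ratio of all optimal peaks, 0.18. No test across peaks was made. Named were the 25 strongest distal peaks, up to 4 per gene list, up to 4 with the largest replicate difference in either direction, the peak farthest from a 5' end and the gaps with most peaks. The peaks and lists were chosen with earlier results of these data known. 20 gene lists were matched by name pattern, and some patterns were corrected and 3 words added after values were seen. Alternatives left out a replicate or changed the rule, the windows or the matching.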

Additional observations from a re-analysis of the deposited data

How the results depend on the processing

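Across 10 alternative rules or lists the number of distal intergenic peaks ran from 146 to 452, and 21 of all 119 alternative values moved beyond the interval, spread or 1.5-fold range of the main value. With only the stronger part of the optimal list the number was 146 (13.7% of the list), the ratio of median signal to promoter peaks 0.955 and the GAGACGCAG share 27.4%. A promoter window of 500 bp gave a share of 21.2% and a median distance of 1779.5 bp. A window of 2000 bp gave 218 peaks (10.2%), 17.4% with GAGAGAGA, 12.4% convergent and a median of 3726 bp. The share was 20.5% with no noncoding margin, 14.3% with 500 bp around every noncoding biotype and 13.2% when the whole peak had to meet the rule. Windows of 50 bp to each side of the summit gave 2.61% for the Zic core, 13.9% for GAGAGAGA and 11.9% for GAGACGCAG, and windows of 200 bp gave 10.4% for the Zic core and 31.0% for GAGAGAGA. A summit match of 100 bp put 60.6% near the strongest of both replicates. Counting neighbours of any biotype, the median distance was 1469 bp. Without replicate 1 or 2, on the strongest peaks of the other, there were 353 and 339 distal peaks, and no value moved. Keeping 1 peak per cluster within 500 bp, an alternative chosen after seeing the data, moved no value. The cause of these shifts was not tested, beyond what wider or narrower windows build in. No paired analysis was possible because there is 1 group. Depth is unknown, and weak peaks near the threshold are the least certain.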

Other observations

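The run CCCTGCGCGA, described above for distal intergenic peaks on X, also lay within 100 bp of the summit of 4 X peaks of other classes. The peak inside a gene nearest the 5' end of cest-16 had a pooled signal of 411, with 177 in replicate 1 and 228 in replicate 2. The promoter-window peak nearest nspc-17 had 339, with 171 and 181. The gene peak nearest Y41G9A.17 had 279, with 146 and 136, and the promoter-window peak nearest ins-39 had 209, with 127 and 88.2. All 4 were in the upper 500 of the optimal list. Of the 7 X matches with no optimal summit within 200 bp, 5 had no summit within that distance in the pooled list. Among these 5, the match at 11899364 did have a summit in the list of each replicate. Its signals were 44.2 in replicate 1 and 58.2 in replicate 2.

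Distal peaks that hold a Zic core and lie between convergent genes were 4 of 30, 13.3%, against 13 of 194 in tandem gaps, 6.70%, and 4 of 121 in divergent gaps, 3.31%. These are counts of few peaks and were not tested.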
